A study of Mus musculus with 12 samples.

Results

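This account concerns the interferon-inducible GTPases of the guanylate-binding protein (GBP) and immunity-related GTPase (IRG) families in activated mouse CD4+ T cells. The genes were Gbp2, Gbp3, Gbp6, Gbp7, Gbp8, Gbp9, Irgm1, Irgm2, Igtp and Iigp1, and their probe sets were those annotated to a single gene symbol. Of these 10 genes, 9 had such a probe set among 18193 genes measured, with 13 probe sets in all among 45101. Gbp9 was not analysed here. The genes were chosen from the response to halofuginone (HF), an inhibitor of prolyl-tRNA synthetase, at 6 h. The 6 h arrays of both compounds entered that choice. Every GTPase difference that takes in their levels, the course from 3 h to 6 h with either compound included, is thus a description without a test. The GTPases are tested only at 3 h, and the 6 h arrays enter that test through the shared spread. The choice was also made with earlier results of these data known, so the 3 h test is not fully independent of it.

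The cells were CD4+ CD25- T cells of C57B/6J mice. All 12 samples were activated through CD3 and CD28 in the presence of TGFb and IL-6, cytokines that direct T cells to the Th17 fate. They received 10 nM HF or 10 nM MAZ1310, an inactive HF derivative, and were taken at 3 h or 6 h. Each of the 4 groups had 3 arrays. No untreated or unactivated group was analysed here, so MAZ1310 is the control throughout. Values are log2 of probe set intensity, and a level can be compared between arrays for 1 probe set but not between genes.

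GBPs and IRGs are cytoplasmic GTPases that interferons switch on in most cell types. IRF1 is a main transcription factor of the response to IFN-gamma, and STAT2 and IRF9 act in the response to type I interferons. GBPs assemble on bacteria and on the vacuoles of intracellular parasites. Among the IRGs, Iigp1 is an effector that loads onto such vacuoles, whereas Irgm1, Irgm2 and Igtp (also called Irgm3) are regulators that keep the effectors inactive on the cell's own membranes. In activated CD4+ T cells, Irgm1 is known to be needed for survival under IFN-gamma.

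The promoters of 6 of the genes were in the RefSeq promoter table used (build GRCm38.p6), and stretches just upstream of their starts are shown because they carry the motifs through which interferons act. Capitals mark the interferon-stimulated response element, GAAA, any 2 bases and GAAA again (on the other strand TTTC, any 2 bases and TTTC), and the gamma-activated site TTCNNNGAA, which reads the same on both strands. Each line is written 5′ to 3′ in the direction of the gene.
Irgm1: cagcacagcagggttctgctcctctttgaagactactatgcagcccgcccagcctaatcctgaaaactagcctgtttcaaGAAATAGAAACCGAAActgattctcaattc
Igtp: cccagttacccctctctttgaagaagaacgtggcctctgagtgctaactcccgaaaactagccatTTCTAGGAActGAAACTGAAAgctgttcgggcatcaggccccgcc
Irgm2: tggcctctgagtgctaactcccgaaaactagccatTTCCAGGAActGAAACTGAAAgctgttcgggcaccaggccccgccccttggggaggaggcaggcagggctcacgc
Gbp7: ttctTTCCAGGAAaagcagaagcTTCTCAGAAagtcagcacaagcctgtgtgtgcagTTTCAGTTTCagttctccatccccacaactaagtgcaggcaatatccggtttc
Gbp3: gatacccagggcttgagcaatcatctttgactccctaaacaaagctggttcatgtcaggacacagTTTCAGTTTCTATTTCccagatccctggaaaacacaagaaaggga
Gbp2: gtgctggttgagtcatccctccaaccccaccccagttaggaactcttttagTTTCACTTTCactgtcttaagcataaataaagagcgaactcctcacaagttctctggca
These stretches are chr11:48871421-48871530 on the minus strand for Irgm1, and on the plus strand chr11:58199446-58199555 for Igtp, chr11:58214867-58214976 for Irgm2, chr3:142530226-142530335 for Gbp7, chr3:142559934-142560043 for Gbp3 and chr3:142620553-142620662 for Gbp2.

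The response element was in the windows of 6 of these 6 genes and in 3.44% of 32851 promoter windows of the same 300 bases. The gamma-activated site was in 3 of the 6, namely Gbp7, Igtp and Irgm2, and in 8.3% of all windows. Irgm1 and Gbp3 each held a pair of response elements that overlap. Gbp3 had a further window, from another start, that held neither motif. The Igtp and Irgm2 genes are neighbours on chromosome 11, and their windows share an identical run of 55 bases, against 7 to 13 for the other pairs of windows. A match is a description of letters and not of a bound factor.

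**Figure D1:**
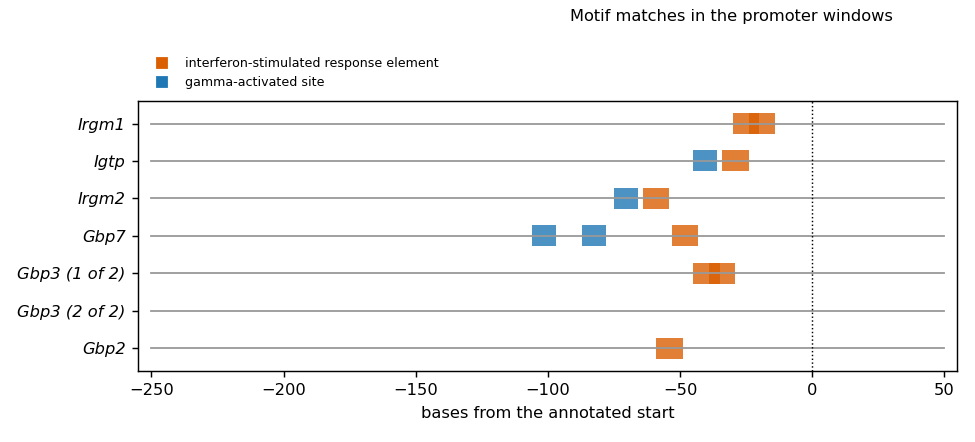
Positions of the gamma-activated site and the interferon-stimulated response element in the promoter windows of the 6 genes, as distance in bases from the gene start. The response elements shown lie within the stretches printed above, and Gbp7 holds a pair of gamma-activated sites.

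With the control compound, all 9 measured GTPases were lower at 6 h than at 3 h of activation. The MAZ1310 arrays of 6 h took part in the choice of these genes, which favours genes that are low there, so the values are a description. The median difference was -2.27 log2 (range -3.19 to -1.23). The 3 h arrays lay above the 6 h arrays for each of the 9 genes; over all genes the share was 13.1%, and nothing is read from the count.

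Among the GBPs, Gbp8 and Gbp7 differed most. Gbp8 (1418776_at) was at 10.35, 9.92 and 9.88 in the 3 h MAZ1310 arrays and at 7.37, 6.73 and 6.47 in the 6 h arrays, 9.13-fold lower (-3.19 ± 0.20 SE log2). Gbp7 (1434380_at), known for bringing the oxidase that makes superoxide to vacuoles, went from 11.90, 11.52 and 11.97 to 9.16, 8.29 and 8.84 (-3.04 ± 0.19). Gbp6 (1447927_at) went from 11.10, 11.10 and 10.97 to 8.80, 8.25 and 8.73 (-2.46 ± 0.13). In each of these 3 genes the 3 control arrays of a time lay much closer together than the 2 times did. Gbp3 and Gbp2 differed least. Gbp3 (1418392_a_at) went from 8.80, 8.19 and 8.88 to 7.48, 6.69 and 7.09 (-1.54 ± 0.22). Gbp2 (1435906_x_at) went from 12.04, 11.93 and 11.92 to 11.35, 10.54 and 10.30 (-1.23 ± 0.18), with replicate 1 of 6 h above the other two.

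The IRG genes were lower at 6 h as well. The regulator Irgm1 (1418825_at) went from 11.99, 11.51 and 12.08 to 9.17, 8.55 and 8.82 (-3.02 ± 0.18). Irgm2 (1417793_at), a regulator found at the Golgi, went from 10.33, 10.02 and 10.29 to 8.50, 7.76 and 7.82 (-2.18 ± 0.18). Igtp (1417141_at), a regulator found at the endoplasmic reticulum, went from 12.71, 12.51 and 12.52 to 10.98, 10.50 and 10.64 (-1.88 ± 0.11). No 3 h array of these regulators overlapped a 6 h array. The effector Iigp1 (1419043_a_at) went from 11.32, 11.03 and 11.20 to 9.20, 8.67 and 8.85 (-2.27 ± 0.14).

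At 3 h, HF-treated cells had more transcript of 6 of the 9 GTPases than MAZ1310-treated cells, and of none less. Among all genes, 2.83% were called higher and 6.66% lower in this comparison (limma, Benjamini-Hochberg adjusted p under 0.05). The median difference over the 9 was 0.67 log2, against 0.03 over all genes. The 3 HF arrays lay above the 3 MAZ1310 arrays for 8 of the 9, against 11.2% of all genes.

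The largest differences at 3 h were in 3 GBPs, each a little over 2-fold. Gbp8 stood at 11.55, 11.29 and 11.02 with HF (1.24 ± 0.20, adjusted p = 0.00119), Gbp7 at 12.91, 12.96 and 13.19 (1.22 ± 0.19, adjusted p = 0.000801) and Gbp6 at 12.15, 12.29 and 12.29 (1.19 ± 0.13, adjusted p = 5.6e-05). Gbp3 and Gbp2 did not pass the test. Gbp3 stood at 9.31, 8.97 and 9.39 with HF (0.60 ± 0.22, adjusted p = 0.116) and Gbp2 at 12.40, 12.54 and 12.51 (0.52 ± 0.18, adjusted p = 0.0957). With the replicate number as a block both passed, at adjusted p = 0.00109 for Gbp3 and 0.0466 for Gbp2. Gbp2 also passed without MAZ1310 6 h replicate 1 (adjusted p = 0.00306) or replicate 3 (0.0484), arrays that enter this comparison only through the shared spread.

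Of the IRG genes, Irgm2 stood at 11.20, 10.87 and 11.03 with HF at 3 h (0.82 ± 0.18, adjusted p = 0.00943). Iigp1 stood at 11.86, 11.88 and 11.81 (0.67 ± 0.14, adjusted p = 0.00523), above all control arrays. Igtp stood at 13.02, 12.96 and 13.02 (0.42 ± 0.11, adjusted p = 0.0271), also above all control arrays. The Igtp call was lost without any 1 of 5 arrays, namely MAZ1310 3 h replicates 2 and 3 and HF 3 h replicates 1, 2 and 3, with adjusted p between 0.0598 and 0.0926. With block and actin difference fitted together, the calls of Irgm2 (adjusted p = 0.077), Iigp1 (0.189) and Igtp (0.438) were lost. Irgm1 differed least: its HF arrays, at 12.18, 11.92 and 12.14, overlapped the control arrays (0.22 ± 0.18, 95% interval -0.18 to 0.61, adjusted p = 0.544).

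**Figure D2:**
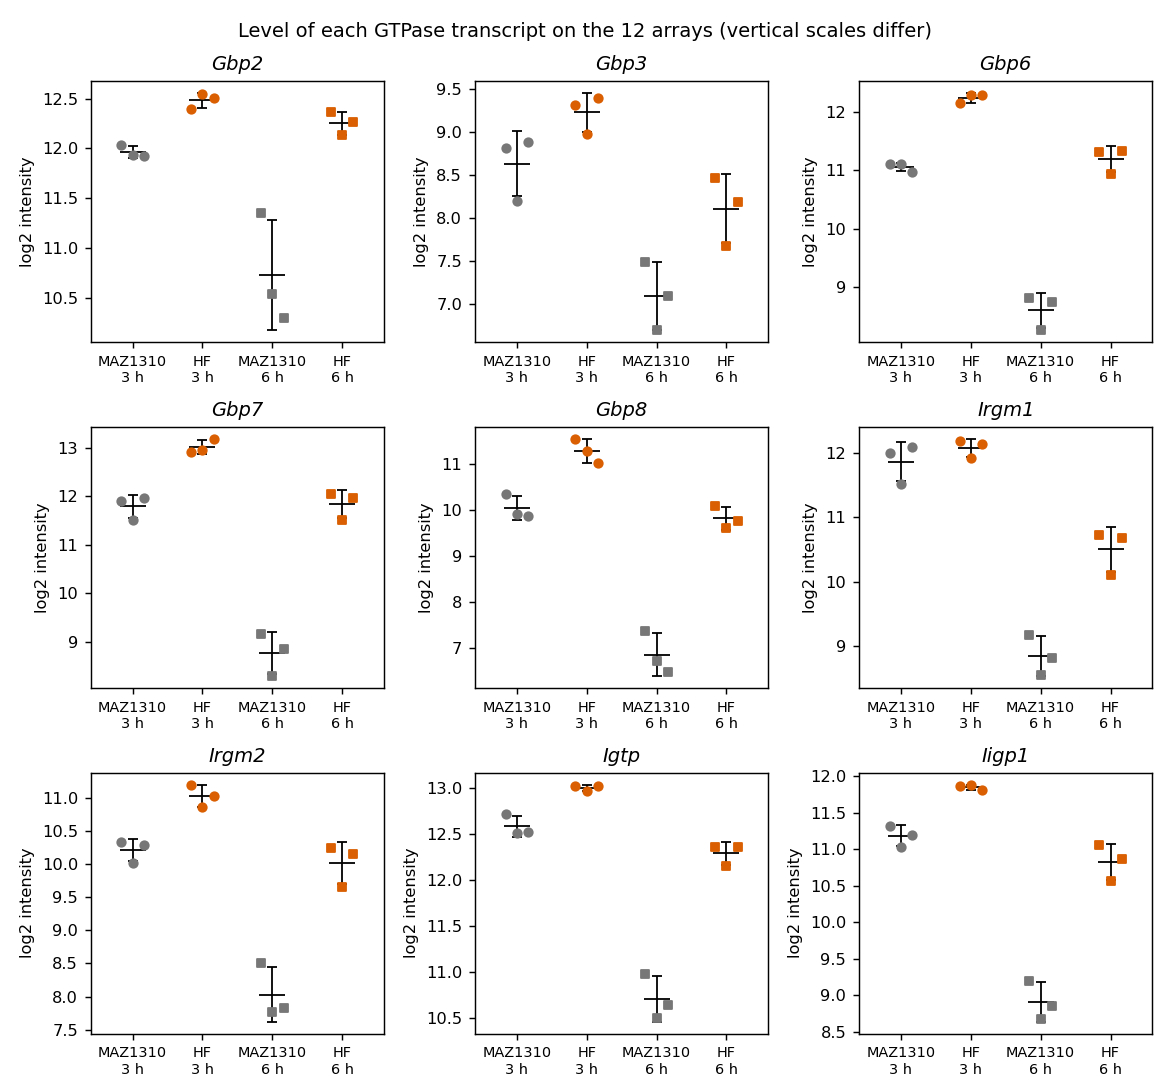
Log2 intensity of the main probe set of each of the 9 GTPases in the 12 arrays, by compound and time, with 1 point per array, the group mean and its SD. MAZ1310 at 6 h is the lowest group for each gene, and HF at 3 h is the highest.

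The T cell markers and a sign of RNA quality moved beside these values and are given before the 6 h values. All 10 measured T cell markers of 12 listed lay above the array median in each group. At 6 h, 8 of the 10 were called lower with HF (median -0.51), against 11.7% of all genes. The summed intensity of the 10 ran from 21347.9 to 23458.6 with HF and from 30451.6 to 31872.7 with MAZ1310. At 3 h none of the 10 was called (limma; 2 at an unadjusted p under 0.05), and sums ran from 26085.4 to 30834.5 with HF and from 28540.2 to 34034.8 with MAZ1310. Listed B cell markers (5 measured) summed to 484.816 to 640.537 over all arrays, and myeloid markers (8 measured) to 768.093 to 980.957. CD8 T or NK markers (8 measured) summed to 1228.73 to 1567.06, and regulatory T cell markers (4 measured) to 8046.65 to 9766.52. Sums are not compared between lists and give no share of cells. Whether a marker is particular to its cell type in activated T cells was not tested. Genes of MHC class II presentation summed to 911.133 to 2444.58, and 4 of these 5 lay above the array median in each group. Their median difference of 6 h from 3 h was -0.54 with MAZ1310 and -0.50 with HF, with 0 of the 5 called (limma; 3 at an unadjusted p under 0.05 with each). The 3′ minus 5′ difference of the actin probes, which grows as RNA degrades, averaged 1.25 with HF and 1.03 with MAZ1310 at 3 h, and 1.07 and 0.864 at 6 h. The part of these in the GTPase values was not tested, except by the fit with the actin difference given in the closing section. In such bulk samples, fewer cells of a type and less RNA per cell cannot be told apart.

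At 6 h, the HF arrays lay above the MAZ1310 arrays for 9 of the 9 GTPases, as the choice of the genes from this comparison would give; over all genes the share was 16.4%. The median difference was 1.92 log2, against 0.02 over all genes. Gbp7 stood at 12.05, 11.51 and 11.98 with HF, a difference of 3.08 ± 0.19. Gbp8 stood at 10.10, 9.60 and 9.76, a difference of 2.96 ± 0.20. Gbp6 stood at 11.31, 10.94 and 11.33, a difference of 2.60 ± 0.13. These are the same 3 GBPs that differed most at 3 h. Gbp2 stood at 12.36, 12.13 and 12.26 (1.52 ± 0.18) and Gbp3 at 8.46, 7.67 and 8.18 (1.02 ± 0.22).

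The IRG differences at 6 h lay between those extremes. Irgm2 stood at 10.24, 9.66 and 10.15 with HF (1.99 ± 0.18). Iigp1 stood at 11.05, 10.56 and 10.87 (1.92 ± 0.14). Irgm1, whose groups overlapped at 3 h, stood at 10.73, 10.10 and 10.68 (1.66 ± 0.18). Its HF and control arrays no longer overlapped. Igtp stood at 12.36, 12.15 and 12.35 (1.58 ± 0.11).

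**Figure D3:**
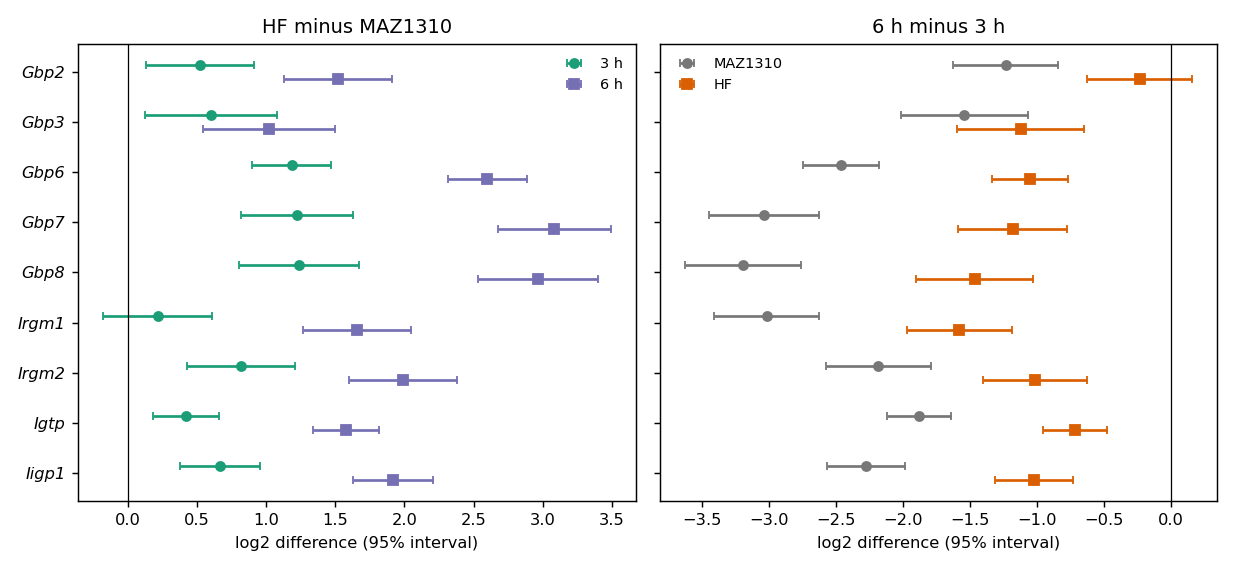
Log2 differences of the 9 GTPases with 95% intervals, for HF against MAZ1310 at 3 h and 6 h and for 6 h against 3 h with each compound. HF differences at 6 h run from 1.02 to 3.08, and the differences of 6 h from 3 h with MAZ1310 from -3.19 to -1.23.

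With HF the genes were also lower at 6 h than at 3 h, by a median of -1.05 log2, and the arrays of the times lay apart for 9 of 9 genes against 15.8% of all genes. This too is a description, since it uses the HF arrays of 6 h. The difference was -1.58 ± 0.18 for Irgm1 and -1.46 ± 0.20 for Gbp8. Gbp2 had the smallest, -0.23 ± 0.18 (95% interval -0.62 to 0.16). The arrays of HF at 6 h and of MAZ1310 at 3 h overlapped for 6 of 9 genes, and for 71.3% of all genes. Among the 6, the difference ran from 0.05 for Gbp7 and 0.13 for Gbp6 to -0.52 for Gbp3. In the other 3 genes HF at 6 h lay apart from MAZ1310 at 3 h, below it for Irgm1 (-1.36) and Igtp (-0.30) and above it for Gbp2 (0.29). The order of the group means was HF 3 h, MAZ1310 3 h, HF 6 h, MAZ1310 6 h in 6 genes, and in Gbp2, Gbp6 and Gbp7 the middle groups changed places.

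At 6 h, the same arrays were high or low over most of the genes. In MAZ1310 at 6 h, replicate 1 was the highest for 9 of 9 genes and replicate 2 the lowest for 7. In HF at 6 h, replicate 2 was the lowest for 9 of 9. At 3 h it was the lowest for 6 of 9 with MAZ1310 and for 4 of 9 with HF. The SD within MAZ1310 at 6 h ran from 0.248 to 0.552, against a median of 0.0907 over all genes. Replicate 2 also had the largest actin difference in each group, and its part in these values was not tested.

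A second probe set existed for Gbp2, Gbp6, Gbp7 and Iigp1, and each had the sign of the main one in every comparison. At 6 h their HF differences were 1.56, 2.89, 2.74 and 2.05 in that order. At 3 h they were 0.51, 1.24, 1.42 and 0.72. GBP genes are close in sequence, so a probe set can take up transcripts of a relative, and probe sets annotated to several GBP genes were left out.

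Relatives of the 2 families outside the chosen genes could be measured for 5 of 18 listed. Here and for the lists below, rose and fell mean HF against MAZ1310 at the same time, unless a change between the times is named. With HF at 6 h, 1 of the 5 rose, Ifi47, an IRG effector, against 5.22% of all genes called higher and 11.7% called lower. With the replicate block 2 of the 5 were called higher at 6 h and 1 at 3 h, and 2 were at 6 h without MAZ1310 3 h replicate 3, MAZ1310 6 h replicate 1, HF 3 h replicate 3 or HF 6 h replicate 2. Ifi47 did not differ detectably at 3 h (-0.21 ± 0.16, adjusted p = 0.5) and was higher with HF at 6 h (0.99 ± 0.16, adjusted p = 0.0004). With MAZ1310 it fell between the times (-2.26 ± 0.16, adjusted p = 1.7e-07). With HF its mean was 12.65 at 3 h and 11.58 at 6 h. At 3 h none of the 5 was called (limma; 2 at an unadjusted p under 0.05). Of 11 measured dynamin superfamily GTPases, such as the mitofusins and atlastins, none was called for HF at either time (limma; 2 at 3 h and 1 at 6 h at an unadjusted p under 0.05).

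The genes nearest in pattern to the GTPases were ranked by the root mean square difference from their mean centred profile over the 12 arrays, among 18184 other genes. They were Map3k8 (0.240), Treml2 (0.245), Mndal (0.253), Filip1l (0.271), Irf1 (0.290), Trim12c (0.329), Parp4 (0.336) and Calhm6 (0.360). The median gene was 1.15 away. Among the GTPases themselves, Iigp1 was closest to the shared profile (0.0747) and Gbp2 farthest (0.535). Mndal, an interferon-inducible gene of the HIN-200 family, averaged 11.22 and 12.20 at 3 h with MAZ1310 and HF, and 8.48 and 11.01 at 6 h. Map3k8 encodes the kinase TPL2, and averaged 10.05 and 10.55 at 3 h and 8.05 and 9.87 at 6 h.

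**Figure D4:**
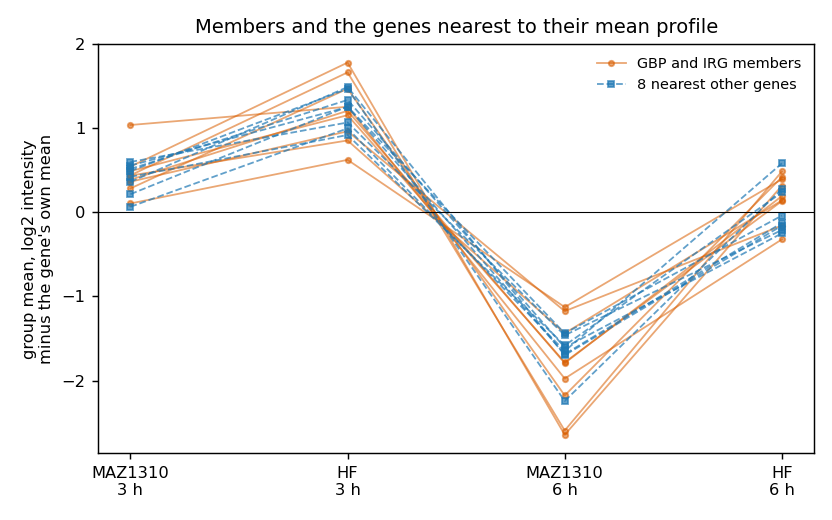
Group means of log2 intensity minus each gene's own mean (y axis) for the 9 GTPases (solid lines) and the 8 nearest other genes (dashed lines), in the 4 groups (x axis). The distances run from 0.240 for Map3k8 to 0.360 for Calhm6.

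Of 15 measured interferon ligands and receptors, 1 fell with HF at 3 h and 1 rose at 6 h. These shares are near those over all genes, 6.66% lower at 3 h and 5.22% higher at 6 h. With the replicate block 2 were called higher at 3 h. Ifng itself was at 11.44, 10.96 and 11.14 with MAZ1310 and 11.56, 10.96 and 11.50 with HF at 3 h (0.16 ± 0.27, 95% interval -0.43 to 0.75, adjusted p = 0.79). At 6 h it was at 10.79, 9.75 and 10.72 and at 11.04, 10.03 and 10.90 (0.24 ± 0.27, 95% interval -0.35 to 0.82, adjusted p = 0.66). Replicate 2 was the lowest in each of the 4 groups, and without MAZ1310 6 h replicate 2 the 6 h value was -0.10. Il12rb2, a chain of the IL-12 receptor, rose with HF at 6 h (1.02 ± 0.18, adjusted p = 0.001), a call lost with block and actin difference fitted together (0.71, adjusted p = 0.0611). Its partner chain Il12rb1 was lower at 3 h (-0.58 ± 0.16, adjusted p = 0.037). That call was lost without MAZ1310 3 h replicate 2 or 3, HF 3 h replicate 1, 2 or 3, or MAZ1310 6 h replicate 2, with adjusted p between 0.052 and 0.156.

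Of 15 measured JAK, STAT and IRF genes, which carry the interferon signal, 11 rose with HF at 6 h, 4 did not pass the test and none fell, with a median of 0.60, and 2 rose at 3 h. Of all genes, 2.83% were called higher at 3 h and 5.22% at 6 h. With MAZ1310, 12 of the 15 fell between the times, against 7.64% of all genes. The list was lower at 6 h with HF too: its median difference from 3 h was -1.06 with MAZ1310 and -0.60 with HF. Irf1, the main transcription factor of the IFN-gamma response, rose at both times (1.04 ± 0.11, adjusted p = 2.1e-05 at 3 h; 1.40 ± 0.11, adjusted p = 3.2e-07 at 6 h). Nlrc5, the activator of MHC class I genes, rose at 6 h (1.11 ± 0.10, adjusted p = 1.8e-06). Irf2 (0.98 ± 0.17, adjusted p = 0.00071) and Irf9 (0.83 ± 0.19, adjusted p = 0.0052) rose at 6 h, and Batf rose at both times (0.49 ± 0.10, adjusted p = 0.0057; 0.75 ± 0.10, adjusted p = 8.1e-05). Stat2, the partner of IRF9, was higher with HF than with MAZ1310 at 6 h (0.75 ± 0.21, adjusted p = 0.018). With HF its mean was 8.35 at 3 h and 7.06 at 6 h. The Stat2 call was lost without MAZ1310 6 h replicate 1 or 2 or HF 6 h replicate 1 or 3, with adjusted p between 0.0643 and 0.104. Averaging its probe sets (0.0595) or fitting block and actin difference together (0.0718) also lost that call. The 3 h call of Batf was lost with block and actin difference fitted together (adjusted p = 0.147). With the replicate block 4 of the 15 were called higher at 3 h, as without MAZ1310 3 h replicate 3. With block and actin difference fitted together, 5 of the 15 were called higher at 6 h, and with unsuffixed probe sets 7 were.

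Of 11 measured genes that restrain interferon signalling, 6 rose with HF at 6 h and 1 fell. At 3 h, 2 rose and 1 fell. Shares over all genes were 5.22% higher and 11.7% lower at 6 h, and 2.83% and 6.66% at 3 h. The counts that fell are near these shares, so nothing is read from them. Socs3 (0.85 ± 0.16, adjusted p = 0.0011), Socs1 (0.51 ± 0.09, adjusted p = 0.0013) and Cish (0.46 ± 0.09, adjusted p = 0.0022) are feedback inhibitors of JAK signalling, and rose at 6 h. Ptpn6, a phosphatase, fell at 6 h (-0.46 ± 0.08, adjusted p = 0.0013). The phosphatase gene Ptpn1 rose at 3 h (0.31 ± 0.08, adjusted p = 0.023) and 6 h (0.45 ± 0.08, adjusted p = 0.00079), and Ptpn2 did so at 3 h (0.39 ± 0.09, adjusted p = 0.011) and 6 h (0.29 ± 0.09, adjusted p = 0.033). The 3 h Ptpn1 call was lost without MAZ1310 3 h replicate 1 or 2 or HF 3 h replicate 2 or 3 (adjusted p 0.0553 to 0.0754), and the 3 h Ptpn2 call without HF 3 h replicate 2 (0.0535). The 6 h Ptpn2 call was lost without any 1 of the 6 arrays of that time (adjusted p 0.053 to 0.13). Unsuffixed probe sets lost the 3 h Ptpn1 call (adjusted p = 0.275) and the Ptpn2 calls at 3 h (0.361) and 6 h (0.378). Without HF 3 h replicate 2, 0 of the 11 were called higher at 3 h (limma), and 1 was without MAZ1310 3 h replicate 1 or 2 or HF 3 h replicate 3. Without the arrays numbered 2, 3 were called higher at 6 h. With block and actin difference fitted together, 0 of the 11 were called at 3 h or at 6 h (limma). The 3 h adjusted p was then 0.508 for Ptpn1 and 0.395 for Ptpn2. The fit without these terms called 6 higher and 1 lower at 6 h, and there 7 had an unadjusted p under 0.05. At 3 h it called 2 higher and 1 lower, and 3 had an unadjusted p under 0.05.

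Among 21 other measured IFN-gamma response genes, 4 rose with HF at 3 h and none fell, and at 6 h 6 rose and 2 fell. Socs1, named above, is also on this list and is counted again. Over all genes, 2.83% were called higher and 6.66% lower at 3 h, and 5.22% and 11.7% at 6 h. The 2 that fell are near the share over all genes, so nothing is read from their count. Tap1, the peptide transporter of antigen presentation, rose at 3 h (0.91 ± 0.08, adjusted p = 5.8e-06) and 6 h (1.56 ± 0.08, adjusted p = 7.3e-09). With its probe sets averaged, the 3 h call was lost (adjusted p = 0.0741). The adhesion molecule Icam1 rose at both times (1.02 ± 0.09, adjusted p = 7.4e-06; 1.49 ± 0.09, adjusted p = 5.5e-08), as did Psmb9 (0.80 ± 0.14, adjusted p = 0.0019; 1.13 ± 0.14, adjusted p = 3.8e-05) and Cd274, which encodes PD-L1 (1.06 ± 0.15, adjusted p = 0.00044; 0.99 ± 0.15, adjusted p = 0.00028). Psmb8 (-0.74 ± 0.16, adjusted p = 0.0046) and Psmb10 (-0.53 ± 0.13, adjusted p = 0.012), immunoproteasome subunits like Psmb9, fell at 6 h. The Psmb10 call was lost without MAZ1310 6 h replicate 1 or HF 6 h replicate 2 (adjusted p 0.0645 and 0.0686). With block and actin difference fitted together, the calls of Psmb9 at 3 h (0.0634) and of Psmb8 (0.0984) and Psmb10 (0.292) at 6 h were lost.

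Of 22 measured type I interferon response genes, 6 rose with HF at 3 h and 9 at 6 h, and none fell at either time. Stat2, named above, is also on this list and is counted again. The shares called higher over all genes were 2.83% at 3 h and 5.22% at 6 h. With MAZ1310, 20 of the 22 fell between the times, against 7.64% of all genes. The list was lower at 6 h with HF too: its median difference from 3 h was -1.22 with MAZ1310 and -1.14 with HF. The difference between the HF effects of the times passed for 0 of the 22 (limma; 2 at an unadjusted p under 0.05), against 0.885% of all genes called upward and 0.918% downward. Parp14 rose at 3 h (0.93 ± 0.19, adjusted p = 0.0056) and 6 h (1.69 ± 0.19, adjusted p = 1.7e-05), and Zbp1, a sensor of nucleic acids, at 6 h (0.83 ± 0.17, adjusted p = 0.0029). Rtp4 rose at 3 h (1.28 ± 0.25, adjusted p = 0.0039) and 6 h (0.88 ± 0.25, adjusted p = 0.023), the latter lost without MAZ1310 6 h replicate 2 or HF 6 h replicate 1 or 3 (adjusted p 0.0898 to 0.132). Ifih1, which encodes the RNA sensor MDA5, rose at 6 h (0.76 ± 0.21, adjusted p = 0.018), lost without the same 3 arrays (0.077 to 0.0909). The 6 h call of Rtp4 was also lost with its probe sets averaged (adjusted p = 0.0864). Trim30a rose at 3 h (0.72 ± 0.20, adjusted p = 0.029) and 6 h (0.77 ± 0.20, adjusted p = 0.012). Its 3 h call was lost without MAZ1310 3 h replicate 2 or HF 3 h replicate 1 or 3 (0.0765 to 0.126) and its 6 h call without MAZ1310 6 h replicate 3 or HF 6 h replicate 1 or 3 (0.0577 to 0.0623). Xaf1 rose at 3 h (0.82 ± 0.25, adjusted p = 0.048), lost without any 1 of 7 arrays, namely MAZ1310 3 h replicate 2 or 3, MAZ1310 6 h replicate 3, HF 3 h replicate 1 or 3 and HF 6 h replicate 1 or 2 (0.051 to 0.207). At 3 h, 3 of the 22 were called higher without MAZ1310 3 h replicate 2, HF 3 h replicate 1 or HF 3 h replicate 3. At 6 h, 5 were called without MAZ1310 6 h replicate 2 and 4 without HF 6 h replicate 1 or 3. With block and actin difference fitted together, 1 was called at 3 h and 5 at 6 h, and the 3 h call of Parp14 was lost (adjusted p = 0.0956).

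GBPs act with the autophagy conjugation machinery, which places GTPases on vacuoles, and with inflammasomes. Of 24 measured genes of these kinds, 1 rose and 2 fell at each time. These shares are near those over all genes, 2.83% higher and 6.66% lower at 3 h and 5.22% and 11.7% at 6 h, so nothing is read from the counts. With the replicate block 4 were called lower at 3 h and 5 at 6 h, and without MAZ1310 3 h replicate 3, 4 were at 6 h. Pycard, the inflammasome adaptor, fell at 6 h (-1.41 ± 0.15, adjusted p = 7.5e-06). Casp4, which encodes the caspase that senses bacterial lipopolysaccharide, rose at 3 h (0.76 ± 0.23, adjusted p = 0.047) and 6 h (1.10 ± 0.23, adjusted p = 0.0027). The 3 h Casp4 call was lost without any 1 of 7 arrays, namely MAZ1310 3 h replicate 2 or 3, MAZ1310 6 h replicate 2 or 3, HF 3 h replicate 1 or 3 and HF 6 h replicate 3 (adjusted p 0.0535 to 0.186). Gabarapl1, which belongs to the ATG8 family, fell at 3 h (-0.61 ± 0.14, adjusted p = 0.0087). Atg5 fell at 3 h (-0.30 ± 0.08, adjusted p = 0.024) and 6 h (-0.31 ± 0.08, adjusted p = 0.011). Its 3 h call was lost without MAZ1310 3 h replicate 2 or 3 or HF 3 h replicate 1 or 3 (0.0538 to 0.073). Its 6 h call was lost with its probe sets averaged (0.0783), without the arrays numbered 2 (0.165) and with block and actin difference fitted together (0.236), and the last also ended the call of Gabarapl1 (0.0595).

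**Figure D5:**
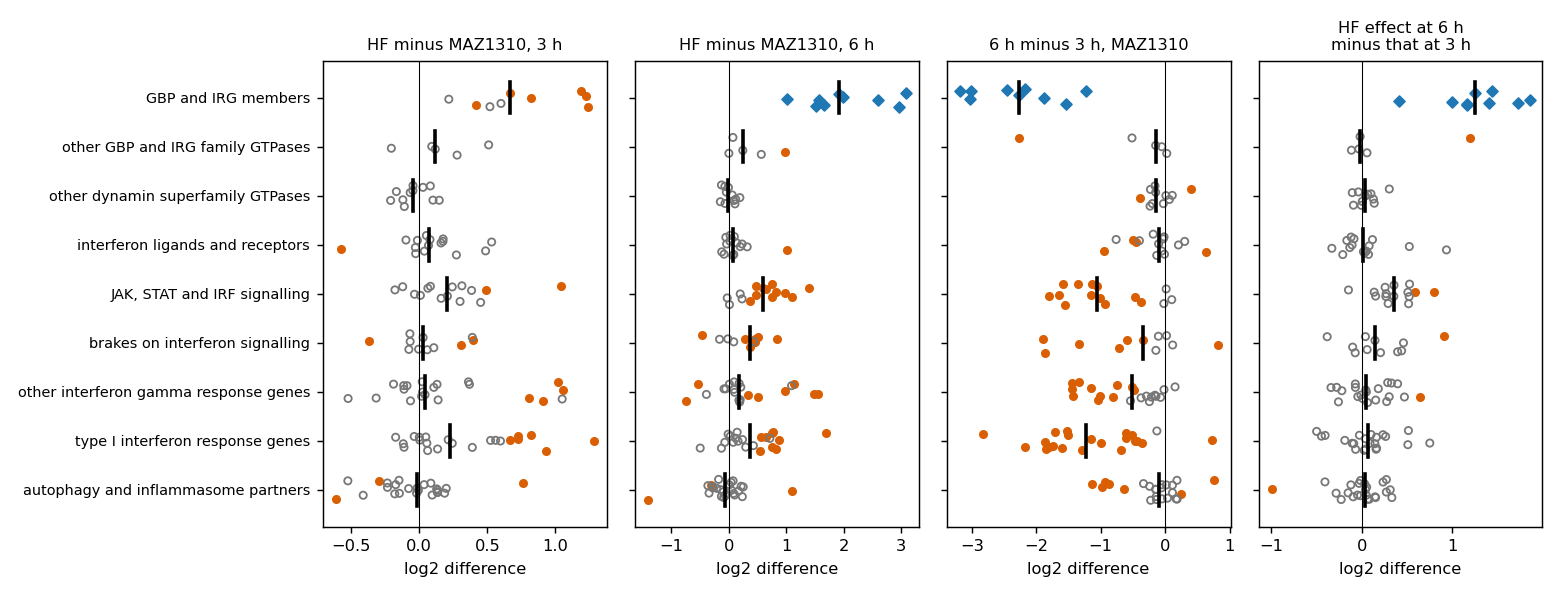
Log2 differences (x axis) of the 9 GTPases and of the measured genes of each list, for HF against MAZ1310 at 3 h and 6 h, 6 h against 3 h with MAZ1310, and the HF effect at 6 h minus that at 3 h. Each point is a gene, filled where called and open where not, diamonds are GTPases shown without a test, and bars are medians. The median of the JAK, STAT and IRF list was 0.21 at 3 h and 0.60 at 6 h.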

How the data were processed

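RNA of 12 samples was hybridised to Affymetrix arrays, 1 array each. The authors deposited probe set intensity on a linear scale, made with RMA per the submitters' processing notes; version and scan dates are unstated in the labels and notes used. RMA normalizes quantiles between arrays, so a shift of all transcripts would not show. Array medians were 6.60 to 6.68 in log2, and the number of arrays limits the precision.

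Here log2 was taken with no pseudocount and no filter. Of 45101 probe sets, 34945 carried 1 symbol, 932 several and 9160 none in the table used. Each gene was represented by its probe set of highest mean, which gave 18193 genes. A model of 4 group means over 12 arrays was fitted with limma 3.58.1 in R 4.3.3 (lmFit, eBayes), with Benjamini-Hochberg adjustment over all genes, and was tested on simulated data. Errors are standard errors. The labels call the samples biological replicates but do not tie them to animals or cultures. What separated the replicates is thus not stated, and a p-value reflects only how far these samples spread. Same-numbered HF and MAZ1310 arrays deviated together (correlations 0.242 to 0.381 at 3 h and 0.287 to 0.391 at 6 h, all over 0.1), so the number may pair them. The labels do not state a pairing, and what such arrays share, RNA quality included, was not tested. The planned fit, without the block, is the one reported, and some calls differ with the block.

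The 6 h against 3 h comparison with MAZ1310, planned as a test, is given for the GTPases as a description, because its 6 h arrays took part in their choice. The GTPases and the gene lists were chosen with earlier results of these data known. Some genes are on several lists and count in each. Of each list, up to 6 genes that passed in an HF comparison are named, by absolute difference, with Ifng, Irf1 and Stat2 always, and the 8 nearest genes in pattern. The alternatives tried were loess between arrays, leaving out dim genes, other choices of probe set, the replicate block with and without the actin difference, leaving out each array or the arrays numbered 2, a fit on 6 arrays, and eBayes with trend. A search for protein motifs was not run. Promoters are from RefSeq.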

Additional observations from a re-analysis of the deposited data

Results flagged for a closer look

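The genes below passed the threshold of limma's interaction contrast (HF effect at 6 h minus that at 3 h, log2, Benjamini-Hochberg adjusted p under 0.05). Of all genes, 0.885% passed it upward. The GTPases were chosen from the 6 h comparison that enters this contrast. Their values thus give no independent support, and passing the threshold is a description and no test for them. The GTPase values were 1.41 for Gbp6, 1.86 for Gbp7, 1.73 for Gbp8, 1.44 for Irgm1, 1.17 for Irgm2, 1.16 for Igtp and 1.25 for Iigp1. Irgm2 did not pass the threshold without any 1 of 9 arrays, all but MAZ1310 3 h replicate 2, MAZ1310 6 h replicate 1 and HF 6 h replicate 2. Gbp8 did not pass it without the arrays numbered 2.

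Of the pathway genes, the values were 1.20 for Ifi47, 0.80 for Nlrc5, 0.65 for Tap1, 0.92 for Socs3 and -0.995 for Pycard. Without the arrays numbered 2, adjusted p was 0.138 for Nlrc5 and 0.134 for Tap1. When a gene's probe sets were averaged, Tap1 was at 0.23 (adjusted p = 0.437) and Pycard at -0.26 (adjusted p = 0.466). Both calls were lost there. The Socs3 call was lost without any 1 of 10 arrays, all but MAZ1310 3 h replicate 2 and MAZ1310 6 h replicate 1 (adjusted p 0.0624 to 0.142). The Pycard call was lost without MAZ1310 6 h replicate 2 or 3, HF 3 h replicate 1 or 3 or HF 6 h replicate 1 or 2 (0.0579 to 0.0769).

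Of the genes nearest in pattern, which were picked for likeness to these GTPases, the values were 1.32 for Map3k8, 0.86 for Treml2, 1.54 for Mndal and 1.30 for Calhm6.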

How the results depend on the processing

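With the replicate number as a block, 8 of the 9 GTPases were called higher with HF at 3 h, against 6 without it. The interaction passed the threshold for 8, a description and not a test. With the block and the actin difference together, 3 were called at 3 h (Gbp6, Gbp7 and Gbp8), and Gbp2 turned from -0.23 to 0.0334 for 6 h against 3 h with HF (adjusted p = 0.98); the cause was not tested. Leaving out 1 array gave 5 to 7 calls at 3 h, 9 to 9 lower at 6 h with MAZ1310 and 6 to 8 for the interaction. It gave a 6 h median of 1.80 to 2.07 and an HF course median of -1.13 to -0.90. The MAZ1310 and interaction counts are descriptions at the same threshold and not tests. The other alternatives gave 3 to 8, 8 to 9, 5 to 8, 1.75 to 2.02 and -1.13 to -0.90 in that order. The 8 for MAZ1310 arose where Gbp3 had no probe set left. The share of all genes called under each alternative is not given here. Nothing is thus read from a change in these counts or in those of the lists. With the block, 8 of the 22 type I interferon response genes were called higher at 3 h, against 6 without it. Ifng at 6 h ran from -0.10 to 0.55 when 1 array was left out. Of the 8 nearest genes, 7 remained when suffixed probe sets were dropped. The number of arrays, 3 a group, limits what small differences could be seen.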
